A study of Mus musculus with 15 samples.

Results

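Genes of apoptotic cell uptake, 6 in number (Axl, Mertk, Gas6, Pros1, Mfge8 and Itgav), were followed by their gene symbols in microglia sorted from mouse brain after ischemic stroke. All 6 were listed in each of the 3 deposited count tables, of 24421 genes per table. Axl and Mertk are receptor tyrosine kinases of the TAM family, named after Tyro3, Axl and Mertk. They do not touch dying cells directly: the secreted proteins Gas6 and protein S, the product of Pros1, bind phosphatidylserine exposed on a dying cell and the receptor at the same time. Gas6 is a ligand of Axl and of Mertk, whereas protein S is a ligand of Mertk and Tyro3. Mfge8 encodes a second kind of bridge, which binds phosphatidylserine and the alpha-v integrins, whose alpha chain is encoded by Itgav. Microglia use these receptors to clear dying cells, and Mertk is known as a receptor of resting microglia and Axl as one induced by inflammation.

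The cells were sorted by intermediate CD45 and CD11b from the forebrain of male mice aged 8 to 24 weeks. Stroke was made by closing the middle cerebral artery for 60 minutes, followed by reperfusion. Wild-type C57BL/6J mice gave 1 library after sham surgery and 1 each on days 1, 6, 14 and 28 after stroke. From Igf1-Egfp mice, in which EGFP marks cells with an active Igf1 transgene, there was 1 positive and 1 negative library for each of days 6 and 14. On day 6, 3 libraries of Yy1flox/flox mice (floxed controls) were set against 3 of Cx3cr1-CreER;Yy1flox/flox mice (Yy1-deleted). The floxed allele is common to both groups and the Cre only to the second, so what Cre does and what the loss of Yy1 does cannot be told apart. The Cre is driven by Cx3cr1, which other brain macrophages and monocytes express too, and its inducer and the number of mice per library are not given in the sources used here.

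Total counts per library ran from 16786830 to 52618224 in the wild-type and day 6 EGFP table, from 23105218 to 24554968 in the day 14 EGFP table and from 10528327 to 13936065 in the Yy1 table. Levels are given in CPM (counts scaled to the library's total) after scaling by TMM, a trimmed mean of ratios between libraries, and can be compared between libraries within a table but not between tables. The 8 defining markers of microglia, among them P2ry12, Tmem119 and Cx3cr1, were above 0 in all 15 libraries. Yy1 itself read 76.1, 50.9 and 57.9 CPM in the controls, 32.5, 28.9 and 38.8 CPM after deletion, lower in 3 of 3 but not called (log2 fold change -0.88, edgeR adjusted p = 0.128). The libraries of days 14 and 28 held fewer genes: 6307 genes reached 20 CPM in sham, and 39 of them were without a count at day 14 and 194 at day 28, beside 0 at the earlier times. In these bulk samples, fewer cells of a type and less RNA per cell cannot be told apart.

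The 250 bases before the start sites of the receptor genes Axl and Mertk are shown because these 2 genes took different courses after stroke. In GENCODE vM21 on GRCm38, Axl lies at chr7:25757273-25788705, Mfge8 at chr7:79133768-79149060 and Gas6 at chr8:13465374-13494490, all on the minus strand. Mertk lies at chr2:128698956-128802894, Itgav at chr2:83724397-83806916 and Pros1 at chr16:62854307-62929346, all on the plus strand. The windows are RefSeq sequences on GRCm38.p6, at chr7:25788734-25788983 on the minus strand for Axl and chr2:128698665-128698914 on the plus strand for Mertk, 5′ to 3′. Capitals mark the GC box, GGGCGG or its reverse complement CCGCCC, a motif bound by Sp1-family factors.
Axl: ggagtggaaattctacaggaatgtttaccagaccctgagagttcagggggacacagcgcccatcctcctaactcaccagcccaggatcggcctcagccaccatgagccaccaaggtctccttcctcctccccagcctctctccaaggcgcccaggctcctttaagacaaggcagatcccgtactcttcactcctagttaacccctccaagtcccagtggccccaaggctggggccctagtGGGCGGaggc
Mertk: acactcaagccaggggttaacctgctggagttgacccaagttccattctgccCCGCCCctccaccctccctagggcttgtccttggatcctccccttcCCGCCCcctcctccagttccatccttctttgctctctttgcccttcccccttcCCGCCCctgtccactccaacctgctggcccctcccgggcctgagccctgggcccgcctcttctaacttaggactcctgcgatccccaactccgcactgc

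The Axl window held 1 GC box, near its 3′ end, and the Mertk window held 3. Among the other members, the same window held 4 in Gas6, 5 in Pros1, 4 in Mfge8 and 0 in Itgav, and it held at least 1 in 32.7% of 32851 mouse promoters. The core of the YY1 motif, GCCAT or ATGGC, which does not overlap the GC box, was in 0 of the 6 windows and in 32.9% of all promoters. A match or its absence describes these letters only.

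**Figure D1:**
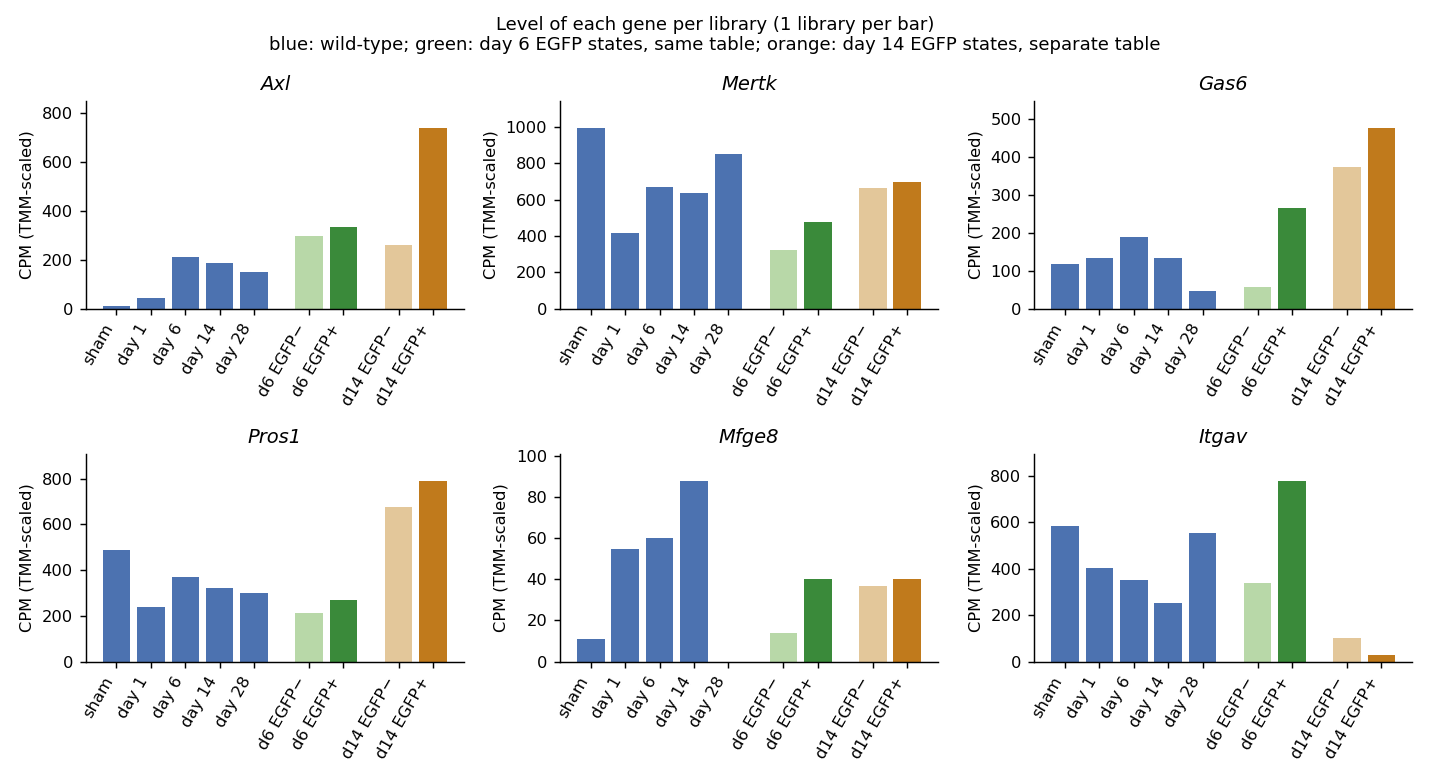
Level of each gene in TMM-scaled CPM (vertical axis, from 0) in 9 libraries, 1 library per bar: wild-type in blue, day 6 EGFP states in green and day 14 EGFP states in orange, the last from a separately scaled table. Axl rises from 10.7 CPM in sham to 209.8 on day 6, Mertk is lowest in wild-type cells on day 1 at 418 CPM, and Mfge8 has no bar on day 28.

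The wild-type series asks how these genes differ at each stage after stroke. In sham and at days 1, 6, 14 and 28 the level of Axl was 10.7, 44.3, 209.8, 186 and 148 CPM, in that order. The highest level was on day 6, and on day 28 it was still 13.8 times that of sham (counting interval 12.7 to 15.2). Mertk ran the other way at first, at 994, 418, 671, 639 and 850 CPM in the same order. Its lowest level was on day 1, 2.38-fold below sham (interval 2.34 to 2.42), and by day 28 it was 1.17-fold below. Tyro3, the third TAM receptor gene, was at 3.03 CPM on day 1, 0.804 on day 6 and without a count in the other 3 wild-type libraries. Markers of several cell types moved over the same libraries. The 8 microglial markers summed to 31764, 8479, 16519, 9673 and 15401 CPM, lowest at day 1 as Mertk was. The 6 monocyte markers summed to 59.2, 1463, 1439, 2119 and 1795 CPM, higher in the 4 stroke libraries as Axl was. Of these sums Fn1 alone gave 45.2, 1142, 1361, 2095 and 757 CPM. On day 14 Ccr2 (0.925 CPM), Ly6c2 (0.925) and Chil3 (0.109) were below their sham levels of 7.55, 1.86 and 2.74 CPM. Fn1, Plac8 and F13a1 were above theirs. The 6 dendritic cell markers summed to 6.34 CPM in sham and 457 CPM at day 28, with 1 of 6 at 0 counts in each. The part of cell composition in these courses was not tested. With 1 library per time point these ratios have no spread between mice to be set against.

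Dividing by exon length allows levels of different genes to be compared within a library, independently of the scaling between libraries. Per kb of exon, Mertk exceeded Axl 107.6-fold in sham. At days 1, 6, 14 and 28 the ratio was 10.9, 3.72, 3.99 and 6.65. Axl thus made up 0.921% of the summed Axl and Mertk level per kb in sham, and 8.37%, 21.2%, 20.1% and 13.1% of it at the later times. The floxed controls of day 6, mice of another genotype in another table, had ratios of 4.16, 4.04 and 3.33, a range that includes the wild-type day 6 value.

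**Figure D2:**
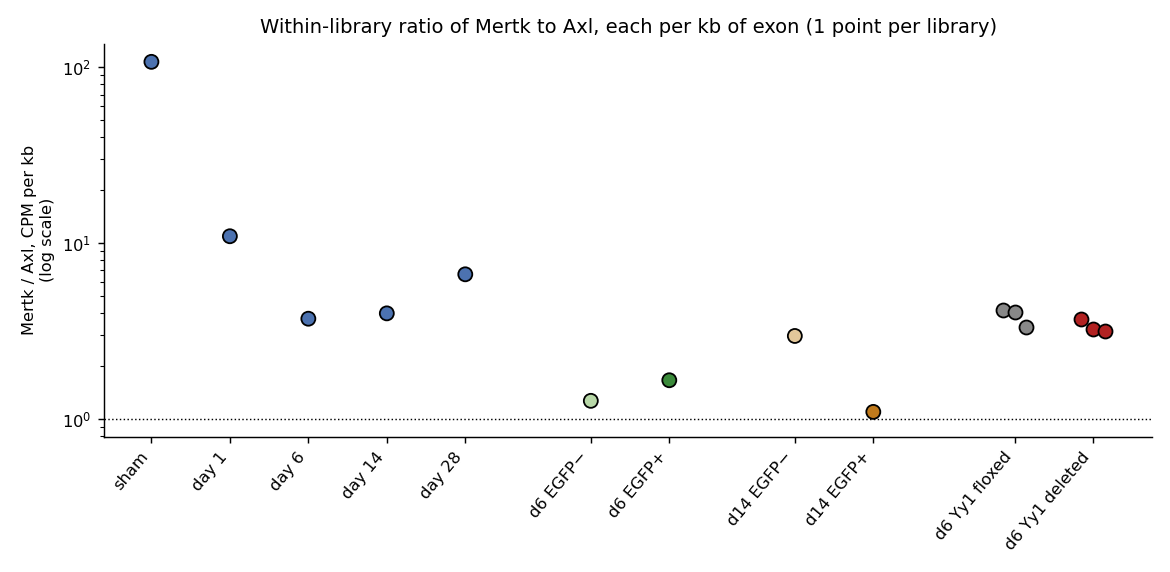
Ratio of Mertk to Axl within each library, each in CPM per kb of exon, on a log scale, with 1 point per library and a dotted line at equal levels. Among wild-type libraries sham is highest at 107.6 and the stroke libraries lie between 3.72 and 10.9. The EGFP-positive library of day 14, from a separate table and another sequencer, is at 1.10. The effect of table and sequencer on these ratios was not tested.

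Among the ligands, Pros1 was lowest on day 1, as Mertk was, and Gas6 was not. From sham to day 28 Pros1 read 488, 241, 372, 320 and 299.5 CPM. Gas6 read 117, 135, 191, 135 and 47.6 CPM, highest at day 6 and lowest at day 28. The Gas6 level on day 28 was 2.46-fold below sham (interval 2.31 to 2.63). Per kb, Pros1 exceeded Gas6 2.59-, 1.11-, 1.22-, 1.48- and 3.92-fold. The 2 ligand transcripts were therefore nearest to each other on days 1 and 6. Tmem255b overlaps Gas6 on the opposite strand and had at most 0.268 CPM in any library.

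The integrin route is represented by Itgav and its bridge gene Mfge8. Itgav read 586, 404, 349.6, 253 and 553 CPM from sham to day 28. Its lowest level was thus on day 14, 2.32-fold below sham (interval 2.25 to 2.39). Mfge8 read 10.9, 54.9, 60.1, 87.8 and 0 CPM, so it was highest at day 14 and without a count at day 28. A count of 0 allows up to 0.132 CPM (a floor of 3 counts), so day 28 was at least 82.7-fold lower than sham, by counting error alone. The bound is 41.4-fold with a floor of 6 counts, which holds if both mates of a fragment were counted. Neither bound covers the loss of genes in this library, where 194 of 6307 genes at 20 CPM or more in sham had no count. Markers of vascular cells moved with Mfge8. The 8 endothelial markers summed to 232, 335, 2576, 5352 and 30.3 CPM in sham and on days 1, 6, 14 and 28, and the 8 mural and fibroblast markers to 38.0, 433, 749, 661 and 1.05 CPM. On day 28, 1 of the endothelial and 3 of the mural and fibroblast markers were at 0, and the part of such cells in the Mfge8 values was not tested. The beta chain gene Itgb5, whose product pairs with that of Itgav, stood at 892 CPM in sham and was lowest on day 1 at 271. Itgb3, another such beta chain gene, went from 113 CPM in sham to 44.5 on day 1, and Itgb1 from 436 to 531. Itgb8 had at most 15.9 CPM and Itgb6 at most 1.09 CPM in any library.

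A size rule of an absolute log2 ratio of at least 2, with at least 20 CPM in 1 of both libraries, was passed by few members. Ratios are on the log2(CPM + 1) scale, which understates the change of low genes. Against sham, Mfge8 passed on day 1 (2.23) and both Axl (4.17) and Mfge8 (2.36) on day 6. On day 14 Axl (4.00) and Mfge8 (2.90) passed, and on day 28 Axl (3.67). Of all genes considered, 5.59% passed as higher and 2% as lower at day 1, 6.25% and 0.0846% at day 6, 12.9% and 6.82% at day 14, and 11.1% and 15.2% at day 28. All 4 comparisons share the sham library. The ratio of Axl on day 1 was 1.95, just under the rule, and became 2.03 with scaling by total counts. That of Mfge8 on day 1 became 1.91 with a pseudocount of 5 CPM. Mfge8 on day 28, with a ratio of -3.57 to sham, was not considered because neither library reached 20 CPM. Between neighbouring times, Axl passed from day 1 to day 6 (2.22) and Mfge8 from day 14 to day 28 (-6.47), beside 2.25% higher and 1.6% lower, and 14.6% higher and 22.6% lower, among all genes. From day 6 to day 14, 0 of 6 members passed, beside 4.46% of all genes as higher and 4.73% as lower. The median log2 ratio of the members was -0.17, 0.15, -0.20 and -0.23 against sham on days 1, 6, 14 and 28, beside 0.00, -0.09, -0.03 and 0.15 for all genes considered.

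Per kb, Mertk was the highest member and Pros1 the next in all 5 wild-type libraries. Axl was the lowest in sham (2.13 CPM per kb, beside 2.32 for Mfge8) and on day 1, but above Itgav and Mfge8 on days 6 and 14 and above Gas6 and Mfge8 on day 28. Spread could be read only in the Yy1 table. In its floxed controls Mertk (155 to 190 CPM per kb), Pros1 (59.4 to 95.8), Axl (44.3 to 47.1) and Mfge8 (1.64 to 4.25) did not overlap with each other. Itgav (35.2 to 39.3) and Gas6 (26.6 to 39.6), the neighbours between Axl and Mfge8, did overlap.

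The genes whose levels ran most like a member were sought over the 7 libraries of the wild-type and day 6 EGFP table, which share scaling and depth differences, among 9380 genes with at least 20 CPM in 1 library. For Axl they were Clec7a (Pearson r of log2(CPM + 1) 0.98), which encodes the beta-glucan receptor dectin-1, Cyp4f18 (0.96) and Slfn5 (0.95). For Mertk they were Rab35 (0.96), Nckap5l (0.96) and Snx17 (0.96), and for Pros1 Scamp2 (0.99), Ecscr (0.96) and Slco2b1 (0.94). Gas6 ran with Ginm1 (0.97), Glmp (0.95) and Fto (0.92), Mfge8 with Zak, Pls3 and Rhoc (0.99 each), and Itgav with Thap2 (0.96), Gtf2a1 (0.94) and Npc1 (0.94). Among the members themselves the highest r was 0.89, between Mertk and Pros1, and the lowest was -0.59, between Axl and Pros1. These are descriptions over 7 points. Over the 5 wild-type libraries alone the highest was 0.93, between Gas6 and Mfge8, and the lowest -0.78, between Mfge8 and Itgav.

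The Igf1 reporter splits the microglia of a day by EGFP. On day 6 the bridging genes Gas6 and Mfge8 and the integrin gene Itgav were higher in EGFP-positive cells, and the receptor genes and Pros1 differed less. Gas6 stood at 58.4 CPM in the negative and 265 CPM in the positive library, a fold ratio of 4.54 (counting interval 4.33 to 4.76). Given as positive against negative, Mfge8 stood at 39.9 against 13.8 CPM, and Itgav at 779 against 337 CPM. Mertk (476 against 325 CPM), Pros1 (270.4 against 213 CPM) and Axl (333 against 298 CPM) had log2 ratios of 0.55, 0.34 and 0.16. Within the libraries, Pros1 exceeded Gas6 2.27-fold per kb in the negative state and was below it in the positive state, at a ratio of 0.635. In both EGFP states of day 6 Axl was above and Mertk below its wild-type day 6 level. These libraries come from different mouse lines. Endothelial markers summed to 2576 CPM in the wild-type, 529 in the negative and 439 in the positive library, and neutrophil markers to 677, 9224 and 345 CPM. Of these neutrophil sums Csf3r gave 462, 414 and 284 CPM. The cause of the difference was not tested.

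On day 14 the pattern among the members was another one. The Igf1 transcript also differed less between the states. It stood at 813 CPM in the positive and 49.5 CPM in the negative library of day 6, and at 33.5 and 11.1 CPM on day 14. Axl stood at 259 CPM in the negative and 739.9 CPM in the positive library, a fold ratio of 2.85 (interval 2.77 to 2.93), the one member past the size rule on the higher side. Gas6 (477 against 374 CPM), Mfge8 (40.3 against 36.9 CPM), Pros1 (792 against 676 CPM) and Mertk (699 against 662 CPM) had log2 ratios from 0.08 to 0.35, that of Mertk being -0.03 with scaling by total counts. Itgav stood at 101 CPM in the negative and 26.4 CPM in the positive library, 3.81-fold lower (interval 3.48 to 4.17) where it had been higher on day 6. The ratio of Mertk to Axl per kb was 2.96 in the negative and 1.10 in the positive state, nearly equal levels per kb in the latter. This rests on exon lengths that may differ from the annotation used for counting.

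**Figure D3:**
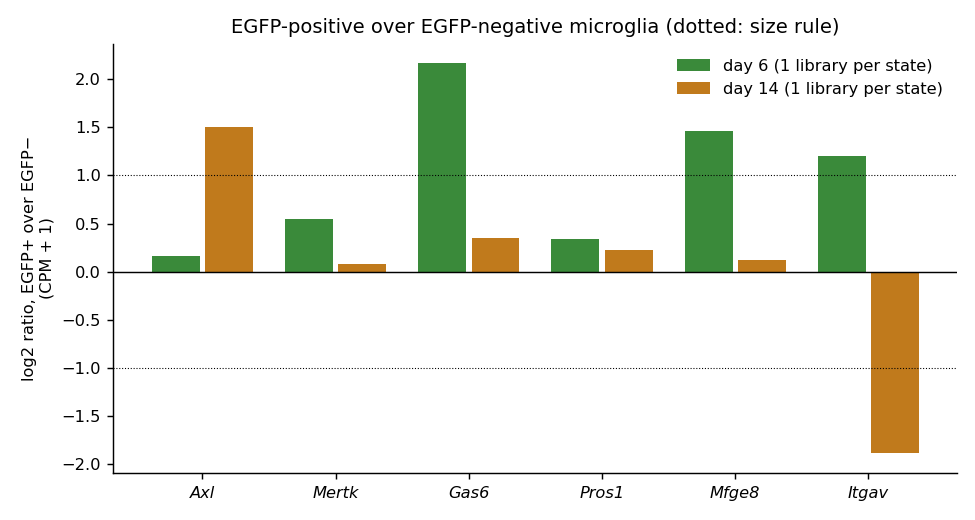
Log2 ratio of EGFP-positive over EGFP-negative libraries on the log2(CPM + 1) scale (vertical axis) for each gene on day 6 and day 14, 1 library per state and day, with dotted lines at the size rule of 1. Gas6 has the highest ratio on day 6 (2.16), Axl on day 14 (1.51), and Itgav lies at 1.20 on day 6 and -1.89 on day 14.

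With the size rule for EGFP states, an absolute log2 ratio of at least 1, 3 of 6 members passed on day 6 as higher (Gas6 2.16, Mfge8 1.46, Itgav 1.20) and 0 as lower. On day 14, 1 passed as higher (Axl 1.51) and 1 as lower (Itgav -1.89). Among all genes considered 7.53% were higher and 11.9% lower on day 6, and 11.2% and 10.9% on day 14. Member medians were 0.88 and 0.18, beside -0.04 and 0.03 for all genes. With both days in one edgeR fit, which has 1 residual degree of freedom and whose day term also holds table and sequencer, 0 of 6 members and 0% of 11696 genes were called. At an unadjusted p under 0.05 there were 171 genes. DESeq2 called 22 genes higher and 15 lower, and limma-voom 34 and 70, none of them a member. The estimate was 1.27 for Gas6 (SE 0.60, edgeR adjusted p = 1) and 0.84 for Axl (SE 0.47, adjusted p = 1).

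Marker sums of other cells differed between the states. On day 6 the 6 listed markers of neutrophils summed to 9224 CPM in the EGFP-negative and 345 CPM in the EGFP-positive library. Csf3r gave 414 and 284 CPM of these sums. The 6 monocyte markers summed to 4597 and 1498 CPM, of which Fn1 gave 1346 and 779 CPM. The 6 dendritic cell markers summed to 239 and 3.71 CPM, with 0 and 4 of 6 at 0 counts. Markers of border-associated macrophages, 6 genes, summed to 75.8 and 254 CPM on day 6, with 0 of 6 at 0 counts in either state. On day 14 they summed to 0.864 and 23.9 CPM, with 5 of 6 at 0 counts in EGFP-negative and 3 of 6 in EGFP-positive cells. Monocyte markers summed to 94.1 and 541 CPM on day 14, of which Fn1 gave 89.6 and 365 CPM. On that day 10892 genes had a count in the negative and 12498 in the positive library. Endothelial markers summed to 30.7 and 427 CPM there, with 5 and 0 of 8 at 0 counts. Neutrophil markers summed to 1241 and 1487 CPM, of which Csf3r gave 1241 and 1223 CPM, with 5 and 1 of 6 at 0 counts. The part of these cells in the member ratios was not tested.

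The Yy1 comparison, the only one with replicates, asks what deleting the transcription factor gene Yy1 does on day 6. None of the 6 members was called by edgeR at an adjusted p under 0.05, where 2.6% of 12387 genes were. Of the 6, 5 had a log2 fold change above 0 (Mertk was at -9.0e-04 with scaling by total counts), and Axl and Itgav were higher in all deleted than in all control libraries, as 9.54% of all genes were, whereas 11.5% were lower. Pros1 and Itgav, 2 of the 6, had an unadjusted edgeR p under 0.05, as 14.1% of all genes did. Nothing in the sources used here says whether these 6 samples came from separate mice, so the p-values may reflect technical spread only.

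Axl read 223, 237 and 235 CPM in the controls, 274, 279 and 299 CPM after deletion. The 3 deleted libraries were above the 3 controls, with means of 232 ± 7.73 and 284 ± 12.9 CPM (SD, n = 3). The log2 fold change was 0.29 (SE 0.14, 95% interval -0.01 to 0.60, edgeR adjusted p = 0.373). Mertk stood at 798, 825 and 674 CPM in controls and 870.2, 783 and 818 CPM in deleted libraries. These ranges overlap, and the log2 fold change was 0.10 (95% interval -0.16 to 0.37, edgeR adjusted p = 0.808), which leaves room for a rise of up to that upper bound. The ratio of Mertk to Axl per kb was 3.84 ± 0.450 in controls and 3.37 ± 0.275 in deleted libraries (n = 3, exact two-sided permutation p = 0.2, where 0.1 is the smallest possible).

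Pros1 stood at 243, 392 and 316 CPM in controls and 446, 462 and 364 CPM in deleted libraries, overlapping through control replicate 2. Its log2 fold change was 0.42 (95% interval 0.06 to 0.79, edgeR adjusted p = 0.263). Gas6 stood at 67.8, 85.0 and 101 CPM in controls and 93.6, 126 and 116 CPM in deleted libraries, also overlapping. Its log2 fold change was 0.40 (95% interval -0.05 to 0.85, edgeR adjusted p = 0.447). Neither ligand gene was called, and the ratio of Pros1 to Gas6 per kb was 2.35 ± 0.473 in controls and 2.41 ± 0.515 in deleted libraries (n = 3, exact two-sided permutation p = 0.7).

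Itgav stood at 378, 422 and 397 CPM in controls and 500.3, 502 and 520 CPM in deleted libraries, with no overlap. The means were 399 ± 22.1 and 507 ± 10.8 CPM, a log2 fold change of 0.35 (SE 0.13, 95% interval 0.08 to 0.62, edgeR adjusted p = 0.204). DESeq2 called it with an adjusted p of 0.0365, and over all 13 alternatives its adjusted p ran from 0.0365 to 0.550. Mfge8 was low in every library, at 20.0, 18.1 and 7.68 CPM in controls and 3.74, 12.8 and 4.93 CPM in deleted libraries, with overlap. Its log2 fold change of -1.09 (95% interval -2.53 to 0.36, edgeR adjusted p = 0.549) was the only negative one among the members. Mural and fibroblast markers were also low, between 19.0 and 73.5 CPM summed in controls and between 0 and 6.4 in deleted libraries, where 6, 6 and 8 of the 8 were at 0 counts. Endothelial markers summed to 538 to 747 and 413 to 514 CPM. The part of these cells in the Mfge8 values was not tested.

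**Figure D4:**
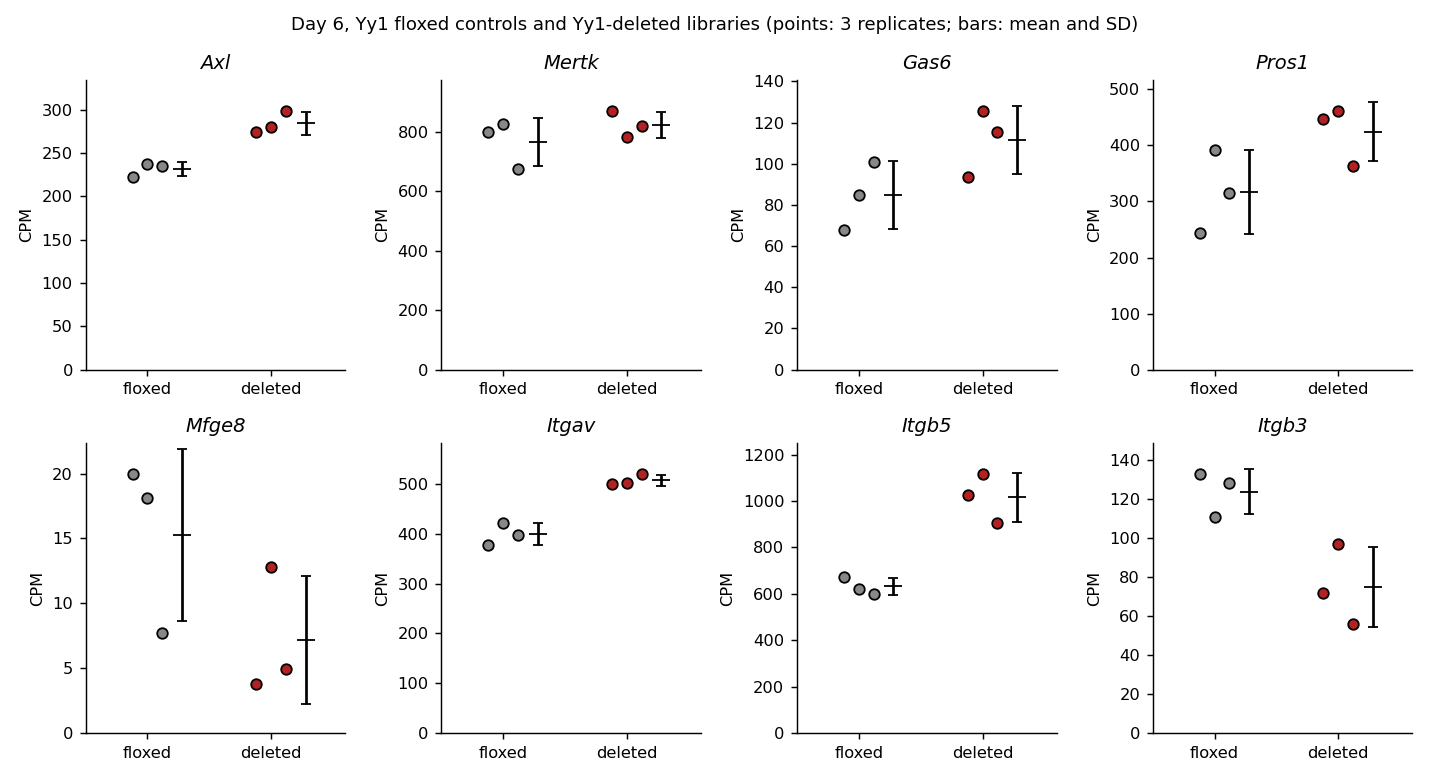
CPM in each of the 3 floxed control (grey) and 3 Yy1-deleted (red) libraries of day 6, with mean and SD beside the points and vertical axes from 0, for the 6 genes and the beta chain genes Itgb5 and Itgb3. Axl, Itgav and Itgb5 are higher in 3 of 3 deleted libraries and Itgb3 lower in 3 of 3, and of these only Itgb5 was called.

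Of the beta chain genes that pair with Itgav, 3 were tested and 1 was called. Itgb5 stood at 674, 622 and 601 CPM in controls and 1024, 1116 and 906 CPM in deleted libraries. It rose by 0.68 on the log2 scale (SE 0.12, edgeR adjusted p = 0.00485) and was called in 13 of 13 alternatives. Itgb3 stood at 133, 111 and 128 CPM in controls and 71.8, 96.8 and 55.9 CPM in deleted libraries, with no overlap (log2 fold change -0.73, edgeR adjusted p = 0.109). It was called in 2 of 13 alternatives. Itgb1 stood at 338, 415 and 360 CPM in controls and 513, 465 and 437 CPM in deleted libraries, also with no overlap (log2 fold change 0.35, edgeR adjusted p = 0.253), and was called in 0 of 13. Of all genes tested, 9.54% were higher and 11.5% lower without overlap. Tyro3 had at most 0.908 CPM in any of these libraries and was not tested.

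Of the wider pathway, 63 genes in 7 lists beside the members were listed and 53 were tested, of which 6 rose and 4 fell in Yy1-deleted libraries. The background was 1.55% higher and 1.05% lower. The lists were chosen with earlier results of these data known, so their counts cannot be weighed against this background. The 10 genes are Itgb5, Sirpa and 8 of the 14 tested receptors and bridges for dying cells. In that list 4 rose, Trem2 (a lipid-sensing receptor, log2 fold change 0.68), Calr (calreticulin, 0.67), C1qb (0.54) and C1qc (0.50), the last 2 encoding chains of complement C1q. The 4 that fell were Cd36 (a scavenger receptor, -3.69), Cd300lf (a phosphatidylserine receptor, -2.12), Stab1 (stabilin-1, -0.71) and Havcr2 (TIM-3, -0.67). Of the 13 alternatives, 13 called Cd36, 12 Cd300lf, 11 Stab1 and 10 Calr. Trem2 and C1qb were called in 9 each, Havcr2 in 8 (edgeR adjusted p = 0.0437) and C1qc in 7 (edgeR adjusted p = 0.0344). The list median was -0.35, beside -0.02 for all genes. Sirpa, which encodes the receptor for the restraint signal CD47, rose by 0.65 (edgeR adjusted p = 0.00124). Among 15 engulfment signaling genes, 13 tested genes of corpse processing and 6 of TAM shedding, carboxylation and feedback, 0 were called by edgeR. DESeq2 called 9 and 7 of all 63 higher and lower. Without control replicate 1 the counts were 2 and 1, without control replicate 2 they were 3 and 3, and with scaling by total counts 3 and 5.

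The sum of microglial markers was 14315 to 15448 CPM in controls and 21723 to 23875 CPM in deleted libraries, and 8 of the 8 were called higher. Monocyte markers summed to 874 to 1273 against 618 to 738 CPM, of which Fn1 gave 736 to 1091 and 551 to 684 CPM. Border-associated macrophage markers summed to 37.3 to 47.7 against 13.8 to 26.8 CPM. None of these 3 pairs of ranges overlapped. Among all single genes tested, 9.54% were higher and 11.5% lower without overlap. Of the monocyte markers 2 of 6 were called lower, and of the border-associated macrophage markers 0 of 4 tested were called. Neutrophil markers summed to 649 to 728 against 1052 to 1344 CPM, of which Csf3r gave 467 to 577 and 861 to 1139 CPM. Without Csf3r they summed to 150, 182 and 151 CPM in controls and 192, 128 and 205 CPM in deleted libraries, which overlap, and the part of other cells in the values above was not tested.

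The other pathway genes in the unreplicated comparisons were mostly within the size rules. Against sham, 5 of 46 considered passed on day 1 as higher and 0 as lower. On day 6 it was 2 of 44 and 0, on day 14 it was 3 and 2 of 44, and on day 28 it was 3 and 1 of 43. The shares over all genes were 5.59% higher and 2% lower, 6.25% and 0.0846%, 12.9% and 6.82%, and 11.1% and 15.2%. Thbs1, which encodes the bridging protein thrombospondin-1, read 40.9 CPM in sham, 1199 CPM at day 1 and 457 CPM at day 28. From sham to day 1 Cd36 went from 1.05 to 92.8 CPM, and Anxa1, the annexin A1 gene, from 1.39 to 67.8 CPM. Vav3, a guanine exchange factor gene of engulfment signaling, stood at 0.300 CPM in sham, 25.3 on day 1 and 46.9 on day 28. Pparg, a nuclear receptor gene, was at 21.6 CPM on day 28 against 0.112 in sham, and Ggcx, which encodes the carboxylase that Gas6 and protein S need, at 0.219 against 73.0 CPM. The day 28 library is also the one without counts for 194 of 6307 genes at 20 CPM or more in sham. Between EGFP states 10 of 45 were higher and 2 lower on day 6, and 6 of 40 and 2 on day 14. Of all genes it was 7.53% and 11.9%, and 11.2% and 10.9%. The lists were chosen with earlier results of these data known, so counts and shares are descriptions only. On day 6 the cholesterol exporter gene Abca1 stood at 1122 CPM in the negative and 3982 CPM in the positive library and the lysosomal membrane gene Lamp1 at 808 and 2232 CPM. On day 14 Lamp1 was lower in the positive library, at 92.3 against 188 CPM. Socs3, a feedback inhibitor of cytokine signaling, was lower in EGFP-positive cells on day 6 (79.7 against 205 CPM). Adam17, which encodes the protease that sheds Mertk, was higher in EGFP-positive cells on day 14 (411 against 181 CPM).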

How the data were processed

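The authors deposited 3 tables of counts per gene. The wild-type, day 6 EGFP and day 14 EGFP tables hold whole counts and the Yy1 table holds expected counts, of which 3.55% to 4.75% per library are not whole, as deposited. The submitters' processing notes name STAR, featureCounts, edgeR, mm10 and GRCm38, and roles, versions, strand setting and annotation are not given in the sources used here. Day 14 EGFP libraries were sequenced on another instrument, per the labels' protocols. In whole-count libraries 68.7% to 90.9% of the counts between 1 and 20 were even numbers. If both mates of a fragment were counted, the exact 95% Clopper-Pearson intervals of fold ratios are too narrow. Intervals and floors cover counting error only.

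Yy1 counts were rounded, filtered by filterByExpr, scaled by TMM and tested with the two-sided quasi-likelihood test of edgeR 4.0.16 (R 4.3.3), with Benjamini-Hochberg adjustment over all genes tested and a threshold of 0.05. Standard errors and 95% intervals come from the same fit. DESeq2 1.42.0, limma 3.58.1, other scalings and filters, a replicate block and leaving out each library were alternatives. In simulated Yy1 data on 11946 genes, 57% of 200 genes changed by 1 on the log2 scale were recovered, and on 11916 genes 99% of those changed by 2. Smaller changes, such as the estimates of 0.10 to 0.42 of the members other than Mfge8, were not simulated. Exon lengths are unions of GENCODE vM21 exons and may differ from the annotation used for counting. Members and lists were chosen with earlier results of these data known. The 6 members, Tyro3, Itgb3 and Itgb5 were always named. Named as well were list genes called in the Yy1 comparison, up to 3 per list with the largest ratio past a size rule, and the 3 genes most like each member. After their values were seen, Igf1, Itgb1, Itgb6, Itgb8, Lrp1, Csf3r and the other cell type markers given singly were named. Rubcn, of the corpse processing list, and Ly6g, of the neutrophil markers, were not matched by symbol. There were 0 columns left unused.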

Additional observations from a re-analysis of the deposited data

Results flagged for a closer look

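Itgav was higher in EGFP-positive than in EGFP-negative cells on day 6 (log2 ratio 1.20) and lower on day 14 (-1.89), the only one of the 6 members with opposite signs on the 2 days under TMM scaling (Mertk was at -0.03 on day 14 with total counts). With 1 library per state and day, and the days in separate tables on different sequencers, the difference between the days was not tested. The sign was the same on each day under all 5 alternatives in pseudocount, scaling and minimum.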

How the results depend on the processing

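In the Yy1 comparison 192 genes were called higher and 130 lower. The counts were 380 and 327 with DESeq2, 309 and 266 without a filter, 289 higher with limma-voom and 127 higher with scaling by total counts. Leaving out 1 library gave 58 to 166 higher and 39 to 151 lower, the lowest without control replicate 1. There were 98 and 67 without control replicate 2 and 78 lower without control replicate 3. Fewer libraries enter those fits, and the cause of the other differences was not tested. The member estimates kept their sign and remained uncalled in the 13 alternatives, apart from Itgav with DESeq2 (0.35, adjusted p = 0.0365) and Mertk with scaling by total counts (-9.0e-04), a scaling that shifted the median of all genes by -0.10. Without 1 library the estimates ran from 0.26 to 0.32 for Axl, 0.03 to 0.17 for Mertk, 0.27 to 0.55 for Gas6, 0.26 to 0.61 for Pros1, -1.81 to -0.78 for Mfge8 and 0.31 to 0.39 for Itgav. With the replicate block 219 genes were higher and 194 lower, and no call of a member changed, with 0.29 for Axl (adjusted p = 0.514). Deviations of same-numbered samples correlated at -0.01, -0.05 and -0.02, so the numbers were not taken to pair samples.

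In the fit over both reporter days Itgav was -0.35, and 0.29 with limma-voom (adjusted p = 0.999), the cause of which was not tested. In the wild-type series RLE scaling shifted all ratios of day 14 to sham by 0.17 and of day 28 by 0.12. It turned the sign of Mertk on day 14 to day 6 (0.06) and of Itgav on day 28 to sham (0.04). Total counts turned that of Mertk between the EGFP states of day 14 (-0.03) and shifted all ratios there by -0.10. With a minimum of 5 CPM Mfge8 on day 28 (-3.57) passed the size rule. Over the 5 wild-type libraries alone, 1 of the 3 genes most like Pros1 was shared with the 7-library list and 0 for each of the other members.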

Other observations

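Among the other receptors and bridges for dying cells, 12 of 20 genes were considered between the EGFP states of day 6, and 6 were higher and 1 lower in the positive library, with a list median of 1.01. Of all genes 7.53% were higher and 11.9% lower. This list was chosen with earlier results of these data known, so its counts cannot be weighed against those shares. Stab1, which encodes the scavenger receptor stabilin-1, had a log2 ratio of 2.71 and Cd36 one of 2.06. Lrp1, a receptor gene for many ligands, was at 1.41, Trem2 at 1.36, C1qc at 1.14 and C1qb at 1.07, and Anxa1 was lower, at -2.88. Stab1 and Cd36 are also expressed by other macrophages of the brain. The border-associated macrophage markers summed to 254 CPM in the positive and 75.8 CPM in the negative library. Of these sums Ms4a7 gave 144 and 16.8 CPM, and Mrc1 60.2 and 49.4 CPM. The part of such cells in the Stab1 and Cd36 ratios was not tested. Stab1 and Cd36 fell in Yy1-deleted libraries of day 6, whereas Trem2, C1qb and C1qc rose.

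Yy1 stood at 1.41 CPM in the negative and 1.71 CPM in the positive EGFP library of day 14, a table whose levels are not compared with those of the others.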
